A study of Mus musculus with 29 samples.

Results

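Peritoneal macrophages, the resident phagocytes of the abdominal cavity, and microglia, the resident macrophages of the brain, both express IRF8. In this series 3470 IRF8 regions had peaks in peritoneal macrophages and none in microglia of any age. They are called macrophage-only regions below. They were chosen by peak presence alone: overlapping macrophage peaks (1 bp) were merged, merged regions with a peak in at least 2 of 3 macrophage libraries were kept, and those overlapped by any peak of the 10 microglial IRF8 libraries were removed. The first 2 steps left 12063 of 34739 merged macrophage regions, so the macrophage-only regions are 3470 of 12063 macrophage regions and of 67562 merged IRF8 regions in the whole series. The other 8593 macrophage regions had a microglial peak and are called shared regions.

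IRF8 is an interferon regulatory factor of blood cells that binds DNA weakly alone and more firmly beside a partner. With PU.1, an ETS family factor needed by all macrophages, it occupies a composite site in which an ETS motif and an IRF motif lie side by side, and with other IRF family members it occupies sites of the interferon response type. H3K4me1 is a histone mark of enhancers and H3K27ac a mark of active enhancers and promoters. Large peritoneal macrophages are known for the transcription factor Gata6 and for a gene program that depends on retinoic acid.

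IRF8 was mapped by CUT&RUN, in which a nuclease tethered by an antibody releases the DNA around a bound protein. The antibody was against GFP, in female mice with an IRF8-EGFP fusion: 3 libraries of peritoneal macrophages, and microglia at postnatal day 9 (P9, 4 libraries), at postnatal day 14 (P14, 3 libraries) and in adults of 3 months (3 libraries). PU.1, H3K27ac and H3K4me1 were mapped in sorted microglia of 3-month-old wild-type (WT) and IRF8 knockout (IRF8KO) mice, with 2 libraries for each target and genotype. The source label of the macrophage libraries names microglia and the titles name peritoneal macrophages, and the titles were followed. The mark lists used here give the state of these sites in microglia, not in macrophages. Replicates are separate samples in the labels, which do not say whether they came from separate mice; p-values then measure only the spread between these samples. The authors called the macrophage lists against a macrophage IgG control and the microglial lists against other controls, so cell type and control cannot be told apart.

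The macrophage libraries held 19408860, 21529744 and 15795402 fragments and listed 23163, 16994 and 9788 regions. Microglial IRF8 lists ranged from 1168 regions at P9 to 29667 in adult replicate 2, the deepest of the adult libraries at 24705885 fragments against 7510600 and 7250496. A region without a listed microglial peak is therefore a region below the authors' threshold in those libraries, which is not the same as one without IRF8.

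Macrophage replicate 3 held far fewer of the macrophage-only regions than the others. Replicate 1 had a peak in 3375 of them, replicate 2 in 3321 and replicate 3 in 722. Only 478 (13.8%) had a peak in all 3 libraries, and 2748 (79.2%) rested on replicates 1 and 2. Leaving out replicate 3 gave 3223 regions, whereas leaving out replicate 1 or replicate 2, so that both remaining libraries had to hold a peak, left 568 and 624. Just outside the rule lay 1170 macrophage regions with a peak in exactly 1 microglial library, 793 of them in adult replicate 2 alone, and 15943 merged regions with no microglial peak but a peak in 1 macrophage library.

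Sequence could be shown at regions that the naming rule picked and that held a motif near the centre. The composite motif searched was GGAA followed, after 2 bases, by GAAA, and the interferon-response-like motif was GAAA followed, after 2 bases, by GAAA, both on either strand. The 7 windows below are on the forward strand of GRCm38, with the matches in capitals. The first pair lie in introns and were among the 12 strongest regions with a peak in all 3 libraries, in Gm2115 (chr7:84551636-84551836) and Ccdc186 (chr19:56811345-56811545). The next pair lie at the promoters of Tmcc3 (chr10:94545569-94545690) and Atg9a (chr1:75189836-75190036), where in Atg9a the 2 kinds of match overlap. Il10 (chr1:131015960-131016160) and the stretch between Rsad2 and Cmpk2 (chr12:26460128-26460328) show regions upstream of immune genes. The Plxna4 intron (chr6:32184651-32184851) is one of 18 macrophage-only regions with PU.1 in both WT microglial lists.
Gm2115 intron: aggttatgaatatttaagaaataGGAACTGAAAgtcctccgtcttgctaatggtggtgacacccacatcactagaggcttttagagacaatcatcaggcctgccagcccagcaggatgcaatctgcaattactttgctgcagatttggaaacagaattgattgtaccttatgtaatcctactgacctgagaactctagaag
Ccdc186 intron: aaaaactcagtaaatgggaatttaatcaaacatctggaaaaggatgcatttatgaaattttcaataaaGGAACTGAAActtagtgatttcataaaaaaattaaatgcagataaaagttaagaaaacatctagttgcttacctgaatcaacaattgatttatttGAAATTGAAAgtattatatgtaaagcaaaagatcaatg
Tmcc3 promoter: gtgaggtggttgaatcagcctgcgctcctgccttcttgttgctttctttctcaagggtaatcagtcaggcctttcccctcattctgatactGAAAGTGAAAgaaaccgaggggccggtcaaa
Atg9a promoter: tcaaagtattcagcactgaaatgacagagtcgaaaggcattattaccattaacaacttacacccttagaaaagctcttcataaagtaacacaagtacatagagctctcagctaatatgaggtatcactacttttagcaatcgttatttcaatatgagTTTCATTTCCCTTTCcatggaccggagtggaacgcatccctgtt
Il10 upstream: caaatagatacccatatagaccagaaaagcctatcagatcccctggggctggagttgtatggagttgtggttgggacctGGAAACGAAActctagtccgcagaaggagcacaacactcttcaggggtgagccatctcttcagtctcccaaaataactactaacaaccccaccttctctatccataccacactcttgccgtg
Rsad2 to Cmpk2: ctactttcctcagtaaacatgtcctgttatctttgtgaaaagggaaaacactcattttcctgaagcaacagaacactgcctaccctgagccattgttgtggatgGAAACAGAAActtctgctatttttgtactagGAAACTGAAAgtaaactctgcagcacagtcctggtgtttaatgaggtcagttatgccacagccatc
Plxna4 intron: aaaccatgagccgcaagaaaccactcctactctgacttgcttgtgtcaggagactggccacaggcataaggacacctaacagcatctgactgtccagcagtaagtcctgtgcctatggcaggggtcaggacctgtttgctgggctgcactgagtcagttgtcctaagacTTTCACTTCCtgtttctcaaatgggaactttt

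Macrophage-only regions lay far from promoters. The centre was within 1 kb of an annotated transcription start in 510 of them (14.7%), against 37.6% of shared regions and 31.0% of all macrophage regions. Introns held 42.8%, intergenic sequence 38.8% and exons 3.66%, and among shared regions the intergenic share was 24.1%. The median distance to a protein-coding start was 17369.5 bp, against 5125 bp for shared regions and 9462 bp for regions of adult microglia without a macrophage peak. Macrophage-only regions were also narrower (median 882.5 against 1007 bp), and had a lower median strength, 55.9 against 63.8 on the percentile scale of the authors' −log10 p within each list.

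**Figure D1:**
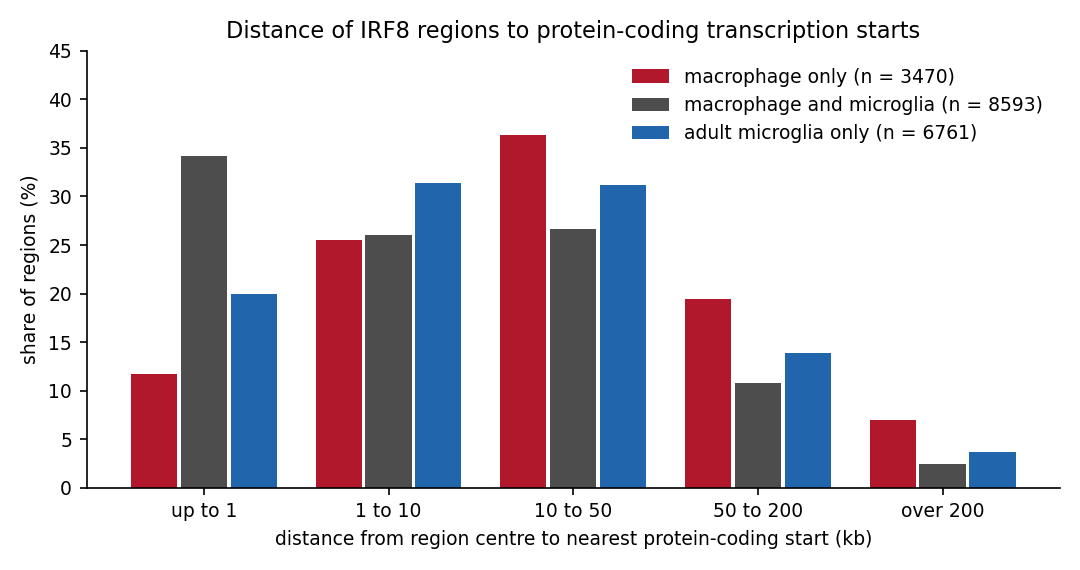
Share of IRF8 regions (%) by distance from the region centre to the nearest protein-coding start (kb), for macrophage-only, shared and adult-microglia-only regions. Each bar is 1 class of regions over all libraries; 11.7% of macrophage-only regions and 34.2% of shared regions were within 1 kb.

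Per library, the promoter share of macrophage-only regions was 14.1%, 13.9% and 20.9%, and that of shared regions in the same libraries 36.9%, 36.5% and 45.1%. Since each region had to have a peak in at least 2 libraries, these per-library shares recount largely the same regions (of 3470, 2748 had a peak in replicates 1 and 2 and 478 in all 3). They are given as values with no test, here and for the marks and motifs. A mirror set was made of the 6761 adult microglial regions that had a peak in at least 2 adult libraries and none in macrophages. Its promoter share was 22.3%, 22.9% and 22.7% in the 3 adult libraries. The mean over libraries was 16.3% at macrophage-only regions and 22.6% in this mirror set, a difference of −6.35 percentage points. It was −8.63 points within batch 1 (replicates 1 and 2 of both groups) and −1.80 points within batch 2 (replicate 3 of each).

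PU.1 of WT microglia was nearly absent from these regions. The 2 WT PU.1 lists overlapped 2.19% and 1.56% of macrophage-only regions, against 47.7% and 40.3% of shared regions. Both lists held 18 of the 3470 regions (0.519%), where the share over all macrophage regions was 23.7%. The share climbed with the number of microglial IRF8 libraries that held a peak: 3.16% with exactly 1 library, 11.7% with 2 to 3, 39.1% with 4 to 6 and 76.0% with 7 to 10. In the strongest quartile of macrophage regions both WT lists held 0.319% of macrophage-only and 47.2% of shared regions.

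Of the 18 regions in both WT PU.1 lists, the 5 strongest lay in an exon of Gm44006 near Pex5, in introns of Plxna4, Maml2 and 4930471E19Rik, and upstream of Mef2a. The region in Plxna4, a plexin receptor gene, had fold enrichments of 12.5, 8.54 and 5.29 in the 3 macrophage libraries and matched the composite motif. The other 4 had peaks in 2 macrophage libraries, and all 5 overlapped H3K4me1 in both WT lists.

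The enhancer marks were less rare. The WT H3K27ac lists overlapped 34.0% and 28.8% of macrophage-only regions, against 89.4% and 84.3% of shared regions. In both lists stood 772 regions (22.2%), against 64.0% over all macrophage regions. The WT H3K4me1 lists overlapped 61.1% and 56.1%, against 93.7% and 90.5% of shared regions, and both lists held 1625 regions (46.8%), against 75.8% over all macrophage regions. These shares depended on the peak threshold: with mark peaks of −log10 p of at least 10 alone, both lists held 8.04% for H3K27ac, and 0.0288% each for H3K4me1 and PU.1. That cut was not applied to shared or all macrophage regions, so the fall cannot be compared between classes.

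Sorted by combination, 686 macrophage-only regions (19.8%) had H3K27ac and H3K4me1 in both WT lists of each, against 74.7% of shared regions. H3K4me1 in both lists with no H3K27ac in either was found at 545 (15.7%), against 3.77% of shared regions. No PU.1, H3K27ac or H3K4me1 peak of any WT list touched 925 (26.7%), against 1.23% of shared regions. At promoters the marks were more common: H3K27ac was in both WT lists at 34.5% of macrophage-only regions near a start and 20.1% of the others, and H3K4me1 at 60.2% and 44.5%.

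The shares of regions in both WT lists were also taken within each macrophage library. For PU.1 they were 0.533%, 0.482% and 0.831% of macrophage-only and 33.3%, 33.7% and 39.8% of shared regions. For H3K27ac they were 22.2%, 21.9% and 23.4% against 80.9%, 81.0% and 83.3%. For H3K4me1 they were 47.0%, 46.8% and 46.3% against 87.8%, 88.0% and 86.2%. The rule removed regions by their microglial IRF8 peaks, and the mark lists are microglial too, so rule and readout share the cell type.

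**Figure D2:**
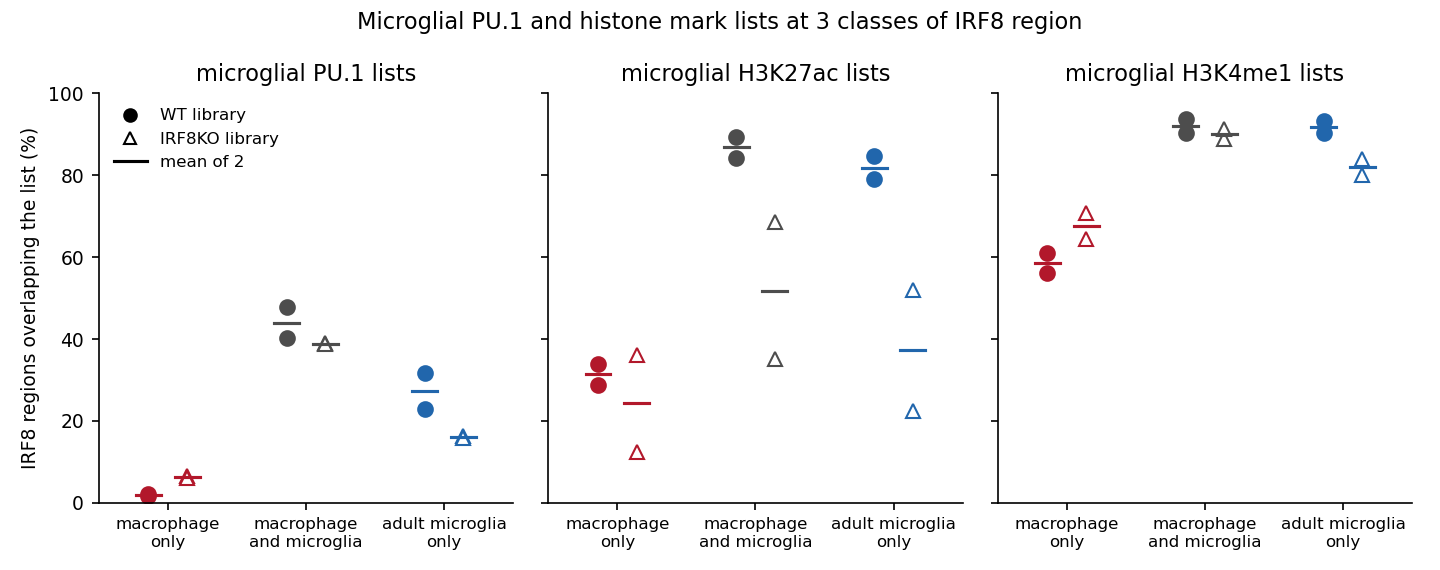
Share (%) of macrophage-only, shared and adult-microglia-only IRF8 regions that overlap each microglial PU.1, H3K27ac and H3K4me1 list; circles are WT libraries, triangles IRF8KO libraries and bars the mean of 2. At macrophage-only regions the WT PU.1 lists reach 2.19% and 1.56% and the IRF8KO lists 6.51% and 6.05%.

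In IRF8KO microglia the PU.1 lists overlapped more macrophage-only regions than in WT, 6.51% and 6.05% against 2.19% and 1.56%. The mean difference was 4.41 points with no overlap between genotypes (two-sided exact permutation p = 0.33, which is the floor for 2 libraries against 2). At shared regions the IRF8KO lists held 39.0% and 38.8% against 47.7% and 40.3% in WT, a difference of −5.14 points, and at adult-microglia-only regions 16.4% and 15.9% against 31.8% and 22.8%, a difference of −11.1 points (exact permutation p = 0.33 for each). Without WT replicate 1, the longest PU.1 list at 14057 regions, these became −1.46 and −6.65 points, and without WT replicate 2 −8.83 and −15.6 points, in checks chosen after seeing the data. Both IRF8KO lists held 110 macrophage-only regions (3.17%), against 21.3% over all macrophage regions. With WT shares of 2.19% and 1.56%, no loss beyond those shares could have been seen at macrophage-only regions. The classes were chosen by IRF8 peaks in microglia that carry IRF8, and the part of that choice in these changes was not tested. With each list limited to its strongest 9490 regions the shares were 6.20% and 5.04% in IRF8KO and 1.41% and 1.56% in WT, and the differences were 4.14 points at macrophage-only, −4.21 at shared and −9.36 at adult-microglia-only regions. Among regions in neither WT list, both IRF8KO lists held 2.65% of macrophage-only, 5.69% of shared and 1.79% of adult-microglia-only regions.

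PU.1 in both IRF8KO lists and neither WT list was found at 89 macrophage-only regions (2.56%), the same share as over all macrophage regions (309 of 12063, 2.56%). These 89 regions included 3 of the 12 strongest in all 3 macrophage libraries, those nearest Vmn2r97, Mmadhc and Gm9268, and the promoter region of Clec12a, an inhibitory lectin receptor gene of myeloid cells. These 4 were picked out after their values were seen. The Clec12a region, chr6:129349472-129350666, had fold enrichments of 15.1 and 11.0 in macrophage replicates 1 and 2 and no peak in replicate 3.

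At macrophage-only regions, H3K27ac differed more between the IRF8KO libraries than between genotypes. The IRF8KO lists overlapped 36.2% and 12.3% of macrophage-only regions, against 34.0% and 28.8% in WT, and IRF8KO replicate 2 was shallow, with 8572250 fragments. The difference of −7.16 points (exact permutation p = 1) became 4.77 points without that library, a check chosen after seeing the data. With each list limited to its strongest 31524 regions the shares were 21.1% and 12.3% in IRF8KO and 18.1% and 15.9% in WT, a difference of −0.288 points. Both IRF8KO lists held 9.88%, against 25.1% over all macrophage regions. At shared and adult-microglia-only regions the H3K27ac differences were −35.0 and −44.6 points (exact permutation p = 0.33 for each). They were −18.3 and −29.8 points without IRF8KO replicate 2, and −31.3 and −37.2 with lists of equal length. H3K4me1 covered 64.5% and 70.7% in IRF8KO against 61.1% and 56.1% in WT, a difference of 8.99 points (exact permutation p = 0.33). Leaving out 1 H3K4me1 library at a time, in checks chosen after seeing the data, gave 5.88 to 12.1 points. At shared regions the H3K4me1 difference was −2.02 points (exact permutation p = 0.67) and at adult-microglia-only regions −9.88 points (p = 0.33, exact). The same leave-out checks gave −0.396 to −3.64 points at shared and −7.86 to −11.9 points at adult-microglia-only regions. Both IRF8KO H3K4me1 lists held 56.5%, against 76.5% over all macrophage regions. The IRF8KO H3K4me1 lists held 113370 and 189351 regions and the WT lists 104818 and 129859. With each list limited to its strongest 104818 regions the shares were 63.9% and 63.1% in IRF8KO and 61.1% and 53.6% in WT. The H3K4me1 differences with lists of equal length were 6.17 points at macrophage-only, −3.58 at shared and −12.3 at adult-microglia-only regions.

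Motif content was compared within 100 bp of the region centre. The composite motif was found in 228 macrophage-only regions (6.57%), 6.32% of shared regions and 6.39% of all macrophage regions, against 2.48% in windows 1 kb to the right of macrophage-only centres. Outside promoters it was at 7.09% of macrophage-only and 8.17% of shared regions. At promoters it was at 3.53% and 3.25%. Per library its share was 6.64%, 6.78% and 7.06% at macrophage-only regions and 6.63%, 6.62% and 6.83% at adult-microglia-only regions. These ranges overlapped, with a mean difference of 0.13 points. The composite share rose with strength, from 4.48% of macrophage-only regions in the weakest quartile to 10.1% in the strongest.

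The interferon-response-like motif differed more. It was found in 274 macrophage-only regions (7.90%), 5.04% of shared and 3.48% of adult-microglia-only regions, with 3.14% in the windows beside macrophage-only centres and 5.86% over all macrophage regions. Outside promoters it was at 8.24% of macrophage-only and 6.25% of shared regions, and at promoters at 5.88% and 3.03%. Per library it was at 8.03%, 8.07% and 6.09% of macrophage-only and 5.12%, 5.09% and 4.12% of shared regions. Composite and interferon-response-like matches stood together in 28 macrophage-only regions. The interferon-response-like share was 8.37% in the 2748 regions of replicates 1 and 2, 7.32% in the 478 of all 3 libraries, 4.03% in the 149 of replicates 1 and 3 and 3.16% in the 95 of replicates 2 and 3.

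Of 5 further motifs, TGANTCA, bound by AP-1 factors, was at 10.1% of macrophage-only, 7.76% of shared and 8.42% of all macrophage regions, with 5.56% in the windows beside. AGATAA, a core bound by GATA factors, was at 14.1% against 9.21% of shared and 10.6% of all macrophage regions, but the windows 1 kb away from macrophage-only centres held it at 12.7%. TGTGGT, the RUNX core, was at 16.2% against 13.7% of shared and 14.4% of all regions, with 14.3% beside. AGGTCA, a core bound by nuclear receptors, was at 14.1% against 12.1% and 12.7%, with 11.7% beside. GAGGAAGT, a PU.1-like motif, was at 5.56% against 6.13% and 5.97%, with 1.18% beside. Base composition moved with these shares: mean GC was 44.8% at macrophage-only and 49.98% at shared regions, and its part in the motif shares was not tested. Promoter shares differed between the classes too. Outside promoters the AP-1 motif was at 10.5% of macrophage-only and 9.64% of shared regions, and the GATA core at 14.7% and 11.3%. There the RUNX core was at 16.8% and 15.9%, the nuclear receptor core at 14.5% and 13.7%, and the PU.1-like motif at 5.95% and 7.53%. None of the 7 motifs was found in 1566 macrophage-only regions (45.1%).

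The composite motif lay beside, not at, the pileup summit. In 101-bp windows it was at 3.40% of macrophage-only regions at the region centre. At the summit of the strongest macrophage peak it was at 1.10%, which is about the 1.04% found 500 bp before the summit, while 100 bp before and after the summit it was at 3.72% and 3.43%. Shared regions had the same dip, with 1.00% at the summit and 4.26% and 4.12% beside it. By library, the share at the summit of macrophage-only regions was 1.24%, 0.903% and 2.08%, and that 100 bp before it 3.61%, 3.31% and 4.29%. The median distance between summit and region centre was 165, 168 and 181.5 bp. The interferon-response-like motif had the same form, at 1.96% at the summit and 4.61% and 4.58% on its sides.

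**Figure D3:**
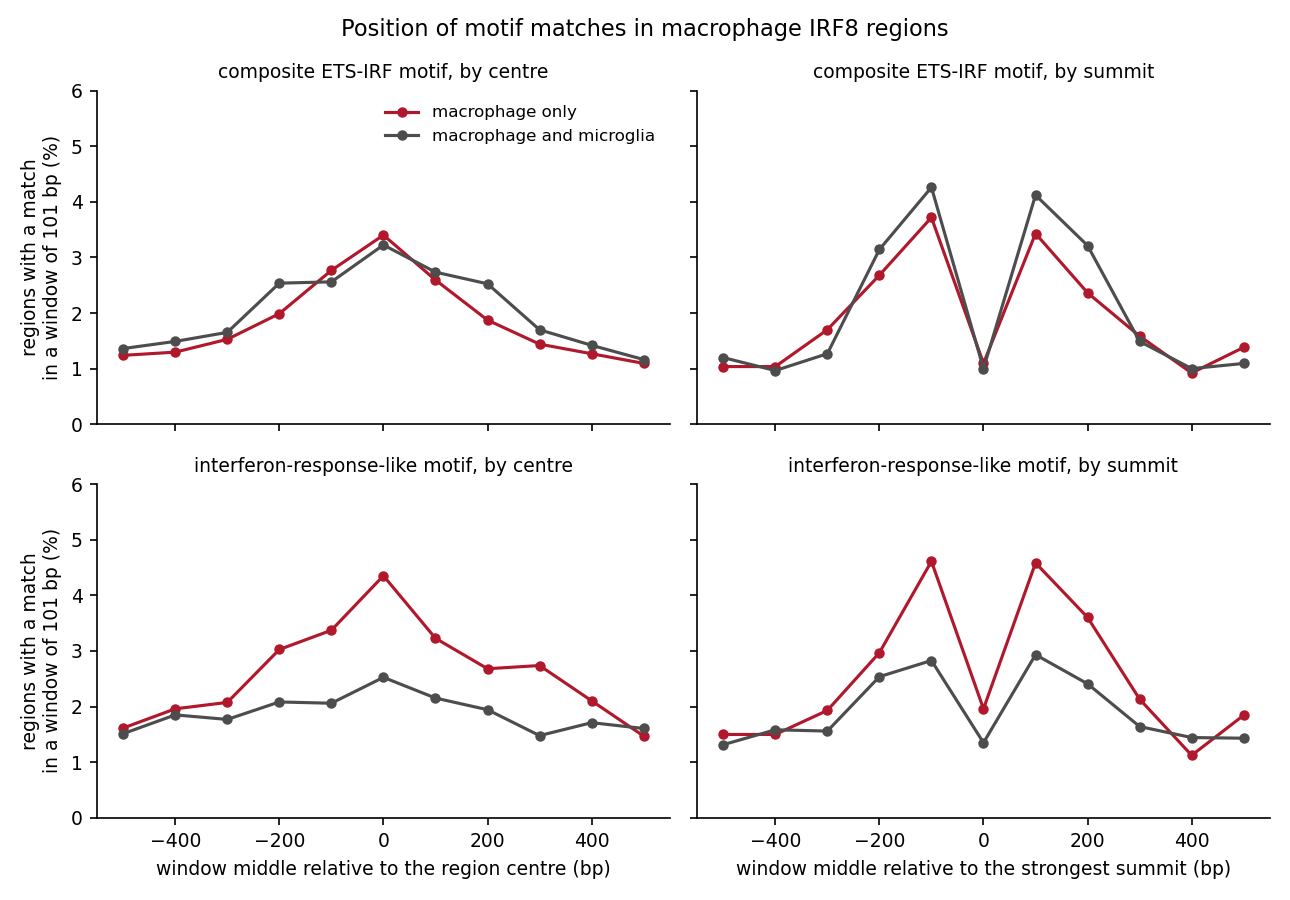
Share of macrophage-only and shared regions (%) with a match in 101-bp windows placed up to 500 bp from the region centre (left) and from the strongest summit (right), for the composite motif (top) and the interferon-response-like motif (bottom). By summit, both motifs dip in the middle window, to 1.10% and 1.96% of macrophage-only regions.

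Of 21938 protein-coding genes, 2008 (9.15%) held a macrophage-only region in the body or the 10 kb around it, and 33.1% held any macrophage region. The count of 2008 fell to 442 without macrophage replicate 1 and to 492 without replicate 2, and was 1838 without replicate 3. A shared region was also present at 1042 of the 2008 genes, and 966 had none. Genes that held a macrophage-only region were long, with a median of 46.3 kb against 17.4 kb over all protein-coding genes. No protein-coding gene lay within 10 kb of 1200 macrophage-only regions (34.6%). Another macrophage-only region lay within 20 kb of 1062 of them (30.6%).

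Most listed genes of resident peritoneal macrophages held a macrophage-only region. Of 24 such genes 20 held at least 1, against 9.15% of all protein-coding genes, with 54 macrophage-only, 19 shared and 3 adult-microglia-only regions among them. Median gene length was 28.8 kb in this list. The list was chosen with results of these data known, so its count is a description. Of 22 microglia genes 1 held a macrophage-only region, Mef2c, while 16 held adult-microglia-only regions, against 21.4% of all protein-coding genes. Any macrophage region was held by 21 of the 24 peritoneal macrophage genes and 13 of the 22 microglia genes. The share with any macrophage region over all protein-coding genes was 33.1%. In checks chosen after seeing the data, the peritoneal count was 19 of 24 without macrophage replicate 3, 8 without replicate 1 and 10 without replicate 2. It was 10 with a −log10 p of at least 10 and 8 where all 3 libraries had to hold a peak. The microglia count was 5 of 22 where a microglial peak had to cover 50% of a region, a setting in which 3015 of all genes held one. It was 2 without adult replicate 2 and 0 without macrophage replicate 1 or 2, with all 3 libraries required, or with a −log10 p of at least 10.

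**Figure D4:**
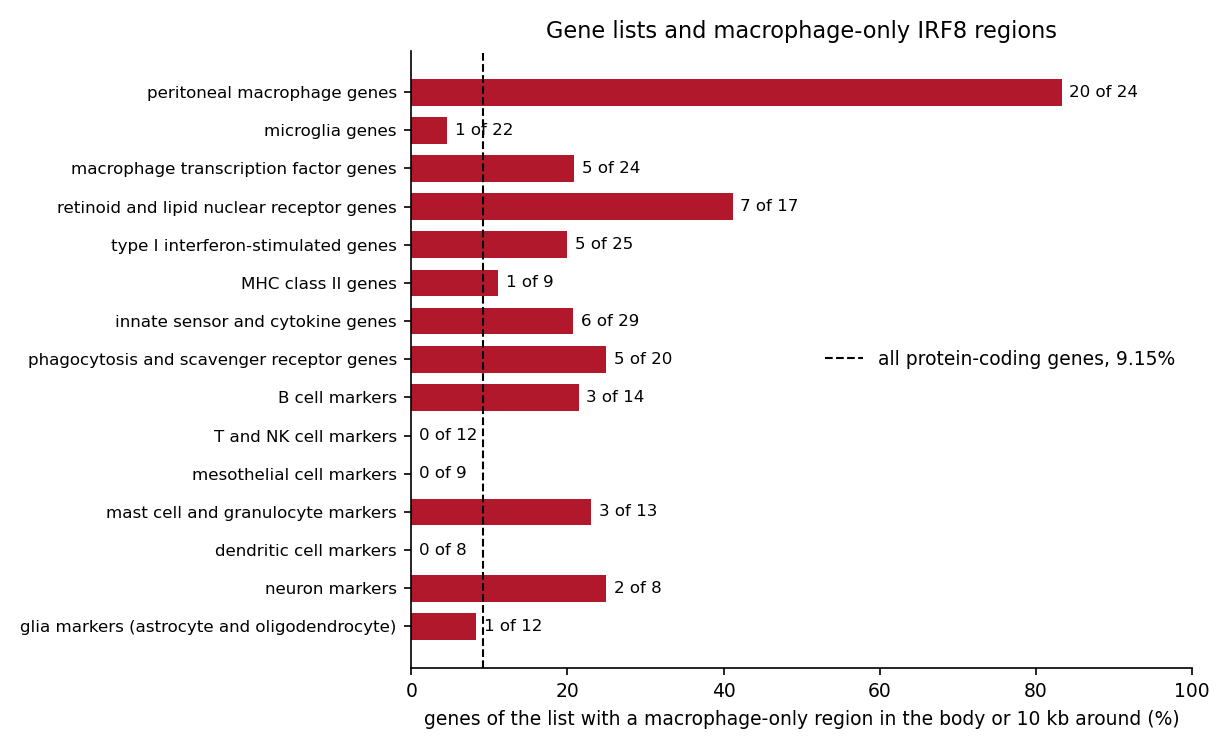
Share of the genes of each list (%) that held a macrophage-only IRF8 region in the body or within 10 kb, with the number of genes beside each bar. The dashed line is the share over all protein-coding genes, 9.15%; the peritoneal macrophage list stands at 20 of 24 genes and the microglia list at 1 of 22.

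Strength here and below is the mean percentile of −log10 p over the libraries that held the peak, and by it Icam2, Garnl3, Serpinb2 and Itga6 led the list. Icam2, an adhesion molecule used as a marker of large peritoneal macrophages, held its region at the promoter (chr11:106386817-106388473), with fold enrichments of 10.0, 9.23 and 7.30 in replicates 1, 2 and 3, so all 3 libraries held the peak. Itga6, the integrin alpha 6 gene, held 4 regions, of which the strongest lies in an intron, with folds of 9.87 and 6.65 in replicates 1 and 2. Serpinb2, a plasminogen activator inhibitor gene, held 4 macrophage-only and no shared regions, the strongest at 734 bp from a start of the neighbour Serpinb10 and 4325 bp from the nearest Serpinb2 start, with folds of 8.91 and 12.8. Garnl3 held 3, the strongest in an intron at 11.5 and 6.87.

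Ltbp1, which binds latent TGF-beta in the matrix, was the peritoneal macrophage gene with most such regions. Its 387 kb body and flanks held 12 macrophage-only, 1 shared and no adult-microglia-only region. The 12 regions ran from the first start to an exon near the 3′ end, and 10 of them lacked a peak in replicate 3. Rarb, a retinoic acid receptor gene, held 5 macrophage-only and 5 shared regions, 4 of the first lying between 245.8 and 271.6 kb from its start. At Gata6, which was picked for its known role and not by strength, the macrophage-only region in an intron was weak, with folds of 4.49 and 3.67 in replicates 1 and 2, and 2 shared regions lay at the same gene. The Ltbp1 and Rarb regions stand in the map of 8 loci.

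**Figure D5:**
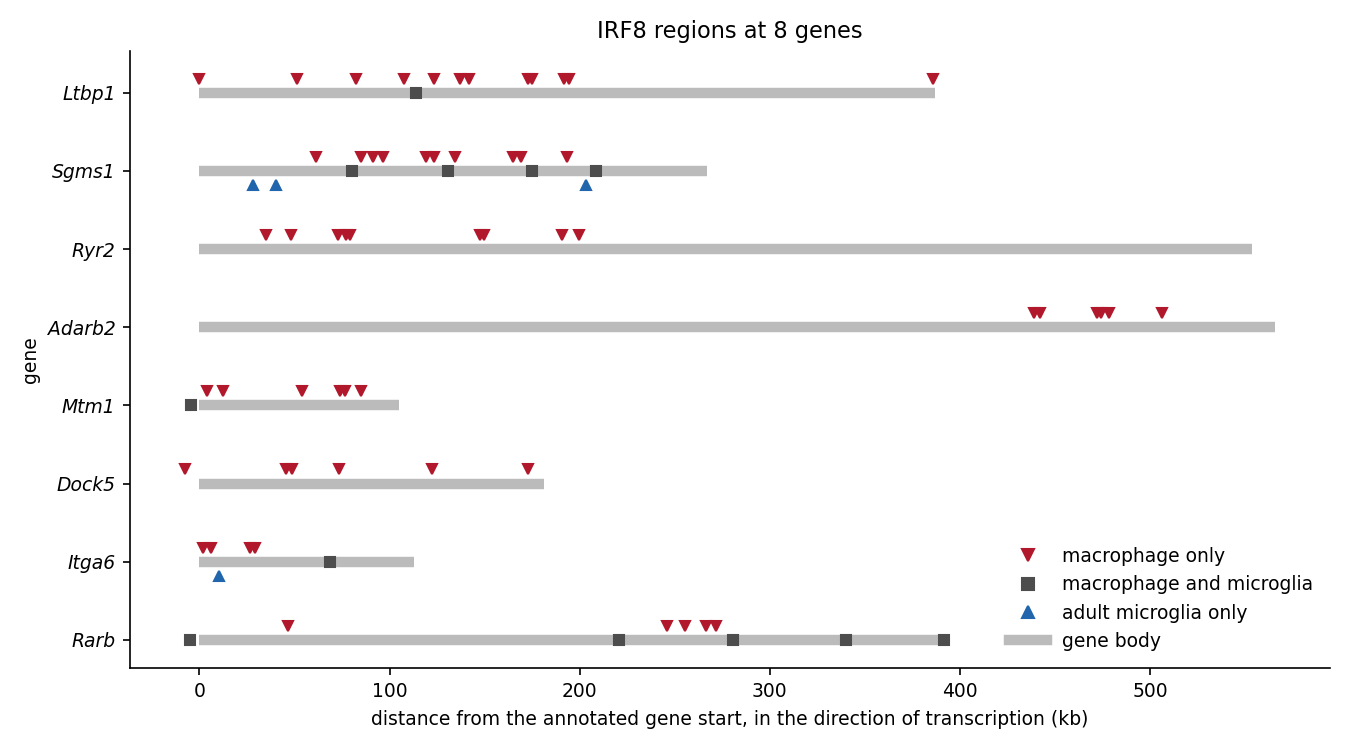
Positions of macrophage-only, shared and adult-microglia-only IRF8 regions at 8 genes, as distance from the annotated gene start in the direction of transcription (kb); grey bars are gene bodies. Ltbp1 carries 12 macrophage-only regions and 1 shared region, and Ryr2 carries 9 with none of the other classes.

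Among genes outside that list, the sphingomyelin synthase gene Sgms1 held 10 macrophage-only regions beside 4 shared and 3 adult-microglia-only ones, Ryr2, a calcium release channel gene, 9 with none of either other class, and Adarb2 and Dock5 6 each with none of either. Arhgef3 and Arhgap26 held 7 each, and Mtm1 and Grk5 6 each. Gm20388, a read-through model that spans 4435 kb and many other genes, held 13, so its count belongs to its neighbours. The strongest Ryr2 region, in an intron, had folds of 22.4, 12.2 and 7.15. These genes were picked by their number of regions, and each is over 100 kb long.

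Genes of phagocytosis and scavenging held regions at 5 of 20 (25%, against 9.15% of all protein-coding genes), with a median gene length of 44.7 kb against 17.4 kb over all. Any macrophage region was held by 16 of the 20, against 33.1% of all protein-coding genes. The strongest region lay 7.31 kb upstream of Cd163, the haemoglobin scavenger receptor gene, with folds of 18.6, 16.2 and 5.51, and that gene had no shared region. Cd36, a fatty acid and lipoprotein receptor gene, held 6, the strongest at 7.81, 5.80 and 4.70. At Timd4, a receptor for phosphatidylserine, the region 6.53 kb upstream had folds of 10.9, 11.3 and 4.33, and at Msr1 the region 1.58 kb upstream had folds of 7.70 and 5.05. Genes of retinoid and lipid signalling held regions at 7 of 17 (41.2%, median length 35.4 kb), and 10 of the 17 held any macrophage region. Of the 7 with a macrophage-only region, 5 encode nuclear receptors and 2, Aldh1a2 and Cyp26b1, enzymes that make and break down retinoic acid. The receptor genes were Pparg, Nr1h3 (folds of 7.70 and 5.91 in replicates 1 and 3), Rxra and Rara beside Rarb.

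The share of 9.15% over all protein-coding genes stands beside each of the next counts. Any macrophage region was held by 19 of 24 transcription factor genes and 18 of 25 interferon-stimulated genes. It was held by 18 of 29 innate sensor and cytokine genes and 8 of 9 MHC class II genes. The share with any macrophage region over all protein-coding genes was 33.1%. Transcription factor genes of macrophages held regions at 5 of 24 (20.8%), namely Klf2, Irf2, Bhlhe40, Bhlhe41 and Mitf. By mean percentile the strongest lay 1.43 kb upstream of Klf2, with folds of 5.84 and 5.06 in replicates 1 and 2. A second Klf2 region, 4.25 kb past its start, had higher folds in those libraries, 7.94 and 8.25, and 3.64 in replicate 3. Irf2 held 6 macrophage-only regions among 9 shared ones. Interferon-stimulated genes held regions at 5 of 25 (20%): Rsad2 and Cmpk2, which encode antiviral enzymes and lie side by side, shared the printed region with folds of 9.31 and 5.20, and the others were Mx1, Rtp4 and Oas1a. The Mx1 region lay in an intron of the neighbour Fam3b. The Oas1a region lay 274 bp from a start of Oas1g and was weak, at a mean percentile of 6.79. Innate sensor and cytokine genes held regions at 6 of 29 (20.7%), led by Tlr7, an RNA sensor (8.02 and 6.50), and Il10, an anti-inflammatory cytokine (6.42 and 5.55). Of 9 MHC class II genes Ciita alone held one (11.1%, near the share over all genes), at an internal promoter, with folds of 7.56 and 3.88 in replicates 1 and 3.

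Marker genes of other cells were counted beside these. Regions were held by 3 of 14 B cell markers (21.4%: Pou2af1, Cd79a and Bank1) and 3 of 13 mast cell and granulocyte markers (23.1%: S100a8, Elane and Retnlg). They were held by 2 of 8 neuron markers (25%, median gene length 168 kb) and 1 of 12 glia markers (8.33%). None of 12 T and NK cell, 9 mesothelial and 8 dendritic cell markers held one. The share over all protein-coding genes was 9.15%. The B cell, granulocyte and neuron shares were as high as those of the transcription factor (20.8%), interferon-stimulated (20%) and innate sensor (20.7%) lists. The region beyond the 3′ end of Pou2af1 had folds of 7.27 and 5.12 in replicates 1 and 2, and that at the S100a8 start 9.63, 5.20 and 5.51 in all 3. Whether other peritoneal cells contributed to these peaks was not tested.

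Of the 12 strongest regions with a peak in all 3 libraries, 6 lay in introns and 6 between genes. The first, chr17:18967573-18969354, is intergenic, 54.2 kb from Vmn2r97, with folds of 20.4, 18.4 and 9.03. The second is in a non-coding gene 224.2 kb from Dusp10 (24.4, 17.8 and 11.2) and the third in an intron of B3gnt2 (27.7, 13.8 and 11.8). The others were nearest Triqk, Mmadhc, Gm2115, Gm9268, Hhip, Dip2c, Ccdc186, Ryr2 and Brinp3. Replicate 3 gave the lowest fold at each of these 12. H3K27ac stood in both WT lists at the B3gnt2 region and at none of the other 11.

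Promoter regions of the highest strength were at Clec12a, Tmcc3, Olfr1230, Icam2, Pfkp, Ctla2b, Atg9a, Sirpb1b, Pcyt1b and Gbp5. Of these 10, 3 had a peak in every macrophage library: Tmcc3 (12.5, 11.0 and 7.88), Icam2 and Atg9a (7.06, 8.56 and 11.8). At Atg9a, an autophagy gene, replicate 3 gave the highest fold. Gbp5, an interferon-inducible GTPase gene, had folds of 9.31 and 7.34 in replicates 1 and 2 and a PU.1-like match. The nearest microglial IRF8 peak was 470 bp from the Tmcc3 region and 288878 bp from the Sirpb1b region. Over all macrophage-only regions that gap had a median of 12573 bp, and 118 (3.40%) lay under 500 bp from a microglial peak.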

How the data were processed

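IRF8, PU.1, H3K27ac and H3K4me1 were mapped by CUT&RUN, and 25 libraries with peak lists were used. Per the file headers, the authors called peaks in each library separately with MACS 2.2.7.1 (IRF8 and PU.1) or 2.2.6 (histone marks) on paired-end fragments, with duplicates kept, a q threshold of 0.01 (0.05 for PU.1 replicate 2) and a largest gap of 640 bp; H3K4me1 peaks were broad, with p 0.01 and a minimum length of 1000 bp. The build was mm10 per the submitters' processing notes, which also name Bowtie2. The deposited pileup height (signal), fold enrichment over the control and −log10 p of each peak are the authors' own, and were used only to describe and rank peaks within a list. Control libraries differed between cell types.

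Lists were merged at 1 bp of overlap and set against GRCm38 with GENCODE release 21 genes, using Python 3.11.15, numpy 2.4.6, pandas 2.3.3 and pysam 0.24.0; scripts were checked on simulated data. A promoter region had its centre within 1 kb of any annotated start, and a gene held a region in its body or within 10 kb. WT and IRF8KO shares were compared over libraries with exact permutation tests, which cannot go below 0.33 (2 against 2). Planned tests of promoter and motif shares over IRF8 libraries are not given, because the 2-library rule makes those libraries recount the same regions. Named regions were the 12 strongest in all 3 libraries, 10 strongest promoter regions, 10 genes with most regions, up to 4 genes a list by their strongest region, and 5 regions with PU.1 in both WT lists. Named outside this rule, after their values were seen, were Gata6, the second Klf2 region, the 4 regions with PU.1 in IRF8KO alone and Mitf, Oas1a, Pparg, Aldh1a2 and Cyp26b1. The regions and gene lists were chosen with earlier results of these data known. Mx2 and Clec7a were not matched. Sequences are from the RefSeq GRCm38 assembly.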

Additional observations from a re-analysis of the deposited data

Results flagged for a closer look

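The PU.1 lists of IRF8KO microglia overlapped more macrophage-only regions than the WT lists did, and fewer shared regions. The change was 4.41 percentage points at macrophage-only and −5.14 points at shared regions, 9.55 points apart. Without WT replicate 1 the change at shared regions was −1.46 points and the 2 changes were 6.19 points apart. Without WT replicate 2 it was −8.83 points and they were 12.9 points apart. With lists of equal length the 2 changes were 8.35 points apart. Both IRF8KO libraries lay above both WT libraries at macrophage-only regions and below both at shared regions. WT shares of 2.19% and 1.56% left no room for a larger loss at macrophage-only regions. Macrophage-only regions were chosen for having no IRF8 peak in microglia that carry IRF8, and shared regions for having one. The WT PU.1 share rose with the number of microglial IRF8 libraries that held a peak. The part of this choice in the opposite signs was not tested. Among regions in neither WT list, both IRF8KO lists held 5.69% of shared and 2.65% of macrophage-only regions. The difference between the 2 changes was not tested.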

How the results depend on the processing

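Of 270 alternatives over 25 results, 204 were labelled the same, 65 moved and 1 turned a direction. For counts, the same meant within a set factor of the main value. For shares and for differences by strength quartile it meant within the spread between libraries. For other differences it meant the same direction. The 270 include the comparisons of promoter and composite shares over IRF8 libraries, whose tests are not given. Requiring a peak in all 3 macrophage libraries left 478 regions, 357 genes and a composite share of 9.21%. With a macrophage −log10 p of at least 10 there were 1063 regions, 655 genes, a promoter share of 9.50% and a composite share of 9.78%. Where a microglial peak had to cover 50% of a region, the promoter share was 20.3%, the composite share 5.91%, the gene count 3015, and the WT PU.1, H3K27ac and H3K4me1 shares 3.24%, 35.1% and 57.4%. A peak in either WT list gave 3.23%, 40.6% and 70.3%, and mark peaks with −log10 p of at least 10 gave 0.0288%, 8.04% and 0.0288%. Promoters taken as 2.5 kb gave 23.8%, the strongest summit gave a composite share of 2.77%, and regions centred within 1 kb of a start gave 416 genes.

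From the weakest to the strongest quartile, macrophage-only minus shared regions differed by −27.7, −27.2 and, in the strongest, −19.1 points for promoters, and by −19.1, −26.7 and, in the strongest, −46.9 for PU.1. For H3K27ac the 4 values were −53.3, −57.4, −60.4 and −64.9, and for H3K4me1 −34.5, −38.4, −42.1 and −48.9.

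Leaving out 1 IRF8 library gave 568 (without macrophage replicate 1) to 4263 regions (without adult replicate 2) and 442 to 2608 genes. Promoter shares were then 13.2% to 18.1% and composite shares 6.43% to 8.98%. The PU.1 share in both WT lists ran from 0.496% to 1.06%. That of H3K27ac lay between 20.8% and 29.6%, and that of H3K4me1 between 45.6% and 53.0%. Leaving out a WT mark library changed the measure, since only 1 WT list was left. Without replicate 2 of the mark, the list of replicate 1 held 2.19% (PU.1), 34.0% (H3K27ac) or 61.1% (H3K4me1). With 1 H3K27ac library left out, the IRF8KO minus WT change of H3K27ac ran from −19.1 to 4.77 points. The last was without IRF8KO replicate 2, which turned its direction. The cause was not tested. With the replicate number as a replicate block, the PU.1 change was 4.41 points (exact p = 0.5), H3K27ac −7.16 (p = 1) and H3K4me1 8.99 (p = 0.5). Nothing in the labels says that the numbers pair the samples.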
